A study of Mus musculus with 20 samples.

Results

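Capillary wall genes were followed in endothelium of the mouse ear, 8 in all: the surface proteins Cd300lg, Car4, Plvap and Emcn, the caveolins Cav1 and Cav2, the water channel Aqp1 and the secreted protein C1qtnf9. They are 8 of 22180 genes with a probe set of a single symbol on the array, and all 8 were among the 14178 genes kept above the filter on low values. Each gene was read from its single-symbol probe set, and C1qtnf9, which has another such probe set, from the one with the higher mean over all 20 arrays. The probe sets were thus chosen by that mean. The genes themselves were selected with earlier measured results of these arrays known: the DNFB differences of Cd300lg and Car4 in both genotypes and of C1qtnf9 in NICD mice. Those differences are therefore described here without a p-value.

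The samples were CD31+CD45-Ter119- endothelial cells sorted from digested ears, with 1 Affymetrix array per sample. NICD mice express the constitutively active intracellular domain of Notch1 from the Rosa26 locus once tamoxifen has activated an endothelial Cre recombinase. The genotype label names this Cre Pdgfb-CreERT2, whereas the growth protocol names CDH5-iCre, so the driver is not settled. The other mice are labelled only as controls, with no allele given. All mice received 5 tamoxifen injections, and the inflamed ears belong to a contact hypersensitivity model: DNFB, a hapten that provokes an allergic skin reaction, was applied on days 0 and 1 and to the ear on day 5, with harvest 24 h later. The vehicle groups have the same days of sensitisation (0 and 1) and challenge (5) and the same harvest at 24 h. The 4 groups were NICD DNFB and NICD vehicle, with 4 arrays each, and control DNFB and control vehicle, with 6 each. The labels conflict for NICD vehicle replicate 4, whose description says DNFB; its title was followed. The labels do not say that replicates are separate mice, so the p-values measure the spread between these samples.

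Endothelial cells exchange water, gases and solutes with tissue through the membrane and through vesicles. Caveolae are flask-shaped pits of the plasma membrane, built from caveolins and a coat of cavins, and are abundant in capillaries of skin. Cav1 is the caveolin that endothelial caveolae need, and Cav2 is its partner. Plvap forms the diaphragm that spans caveolar necks and fenestrae. Aqp1 passes water, Car4 is a carbonic anhydrase held on the outer membrane that interconverts carbon dioxide and bicarbonate, and Emcn (endomucin) is a sialomucin of capillary and venous endothelium. Cd300lg, also called nepmucin, is a mucin-like adhesion receptor of the CD300 family. C1qtnf9 is a secreted relative of adiponectin.

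Promoter windows of 300 bases, from 250 before to 50 after a start site, were taken from RefSeq (GRCm38.p6) and were found for 6 of the 8 genes, Cd300lg and Plvap having none in the table. Shown here are 4 of them, because they belong to the adjacent caveolin genes, which both fell in DNFB ears, and to the genes with the largest rise and the largest fall among the 8. Capitals mark matches, on either strand, to the RBPJ core TGGGAA, the AP-1 site TGANTCA, the ETS core CCGGAA, the GC box GGGCGG and the TATA box TATAAA.
Cav2, chr6:17280935-17281234, + strand: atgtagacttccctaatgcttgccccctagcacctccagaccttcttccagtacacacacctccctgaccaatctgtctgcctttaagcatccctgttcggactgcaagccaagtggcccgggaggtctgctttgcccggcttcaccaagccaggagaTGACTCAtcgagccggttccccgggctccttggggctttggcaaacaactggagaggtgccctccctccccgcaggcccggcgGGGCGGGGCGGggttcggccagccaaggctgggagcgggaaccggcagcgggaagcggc
Cav1, chr6:17306085-17306384, + strand: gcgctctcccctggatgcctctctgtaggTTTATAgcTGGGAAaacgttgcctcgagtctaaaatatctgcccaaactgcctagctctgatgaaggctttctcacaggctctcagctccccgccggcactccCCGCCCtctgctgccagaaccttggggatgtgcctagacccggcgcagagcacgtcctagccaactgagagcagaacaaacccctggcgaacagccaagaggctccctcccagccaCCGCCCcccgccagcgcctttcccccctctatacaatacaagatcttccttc
Car4, chr11:84957504-84957803, + strand: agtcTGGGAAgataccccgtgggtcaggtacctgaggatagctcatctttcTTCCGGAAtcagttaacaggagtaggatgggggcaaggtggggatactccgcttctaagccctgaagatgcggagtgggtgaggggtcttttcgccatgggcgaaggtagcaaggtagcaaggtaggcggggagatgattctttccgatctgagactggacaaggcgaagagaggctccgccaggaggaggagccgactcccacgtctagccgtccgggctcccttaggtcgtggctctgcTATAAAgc
C1qtnf9, chr14:60767884-60768183, + strand: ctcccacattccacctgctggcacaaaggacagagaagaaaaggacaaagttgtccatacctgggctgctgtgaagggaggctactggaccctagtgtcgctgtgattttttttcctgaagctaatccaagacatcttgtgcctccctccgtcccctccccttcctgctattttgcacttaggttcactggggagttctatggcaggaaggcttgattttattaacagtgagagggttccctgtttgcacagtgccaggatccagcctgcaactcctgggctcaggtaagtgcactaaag
The Cav2 window held an AP-1 match 92 bases before the start site and 2 overlapping GC boxes. The first of 2 Cav1 windows held an RBPJ core, 2 GC boxes and a TATA match on the opposite strand, and the other Cav1 window held none of the 5 motifs. The Car4 window held an RBPJ core, a pair of overlapping ETS cores on opposite strands and a TATA match after the start site. The C1qtnf9 and Emcn windows held none, and the Aqp1 window held an RBPJ core and a GC box. Of 32851 such windows of the genome, 25.6% held the RBPJ core, 7.81% the AP-1 site, 14.9% the ETS core, 35.7% the GC box and 13.6% the TATA box. A match describes the letters only.

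Values are log2 RMA signals as the authors deposited them, and a difference of 1 on this scale is 2-fold. They limit what can be set side by side, since the 2 genotypes differ as whole sets of arrays. Array medians were 3.52 to 3.62 in NICD arrays and 3.87 to 3.98 in control arrays, and replicates correlated at 0.944 to 0.981. The low end went the other way, with array minima of 1.18 to 1.30 in NICD and 0.41 to 0.59 in control arrays. Probe sets for sensory receptors had medians of 2.49 to 2.51 in NICD and 2.31 to 2.33 in control groups. Centring subtracts a single value per array, so it does not remove this difference in shape. Xist read 8.47 to 9.07 on every NICD array and 2.27 to 3.16 on every control array, so that sex and genotype cannot be told apart. Notch1, the gene of the transgene, averaged 9.76 in NICD DNFB and 9.71 in NICD vehicle ears, against 9.76 in control DNFB and 9.82 in control vehicle ears, and did not separate the genotypes as deposited. With arrays centred on the median of all their probe sets it was higher by 0.37 in NICD DNFB ears (limma adjusted p = 0.00688), and centred on the kept probe sets by 0.30 (adjusted p = 0.0543). All 8 genes lay above the array background in all 4 groups, where background is the 95th percentile of 1440 probe sets for sensory receptors, 3.48 to 3.95. In sorted bulk samples, fewer cells of a type and less RNA per cell cannot be told apart.

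**Figure D1:**
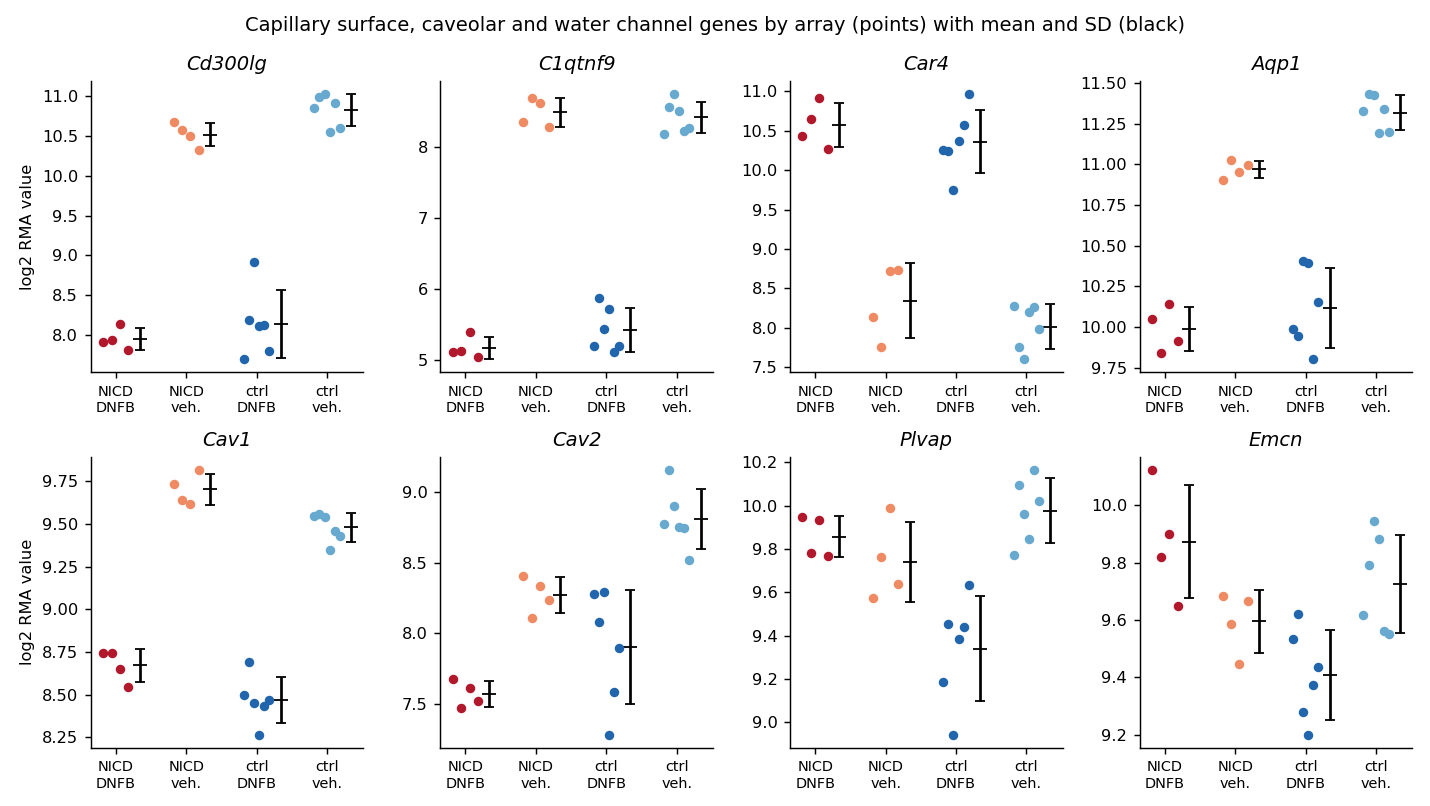
Log2 RMA value of each gene on each array, with 1 panel per gene, NICD groups left of control groups and DNFB left of vehicle; points are arrays and the black bars are means with SD (n = 4 NICD, n = 6 control). Cd300lg, C1qtnf9, Aqp1, Cav1 and Cav2 lie lower and Car4 higher in DNFB than in vehicle ears of the same genotype, without overlap, and each panel has its own vertical range.

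In NICD mice, DNFB ears had 5 of the 8 genes lower and 1 higher than vehicle ears, with a median difference of -0.84. Of all 14886 probe sets tested, 38.1% passed in this comparison, 18.1% as lower and 20% as higher, and their median difference was 0.0067. In control mice, 7 genes were lower and 1 higher, with a median of -0.96, while 47.2% of all probe sets passed, 23.6% as lower and 23.7% as higher. The values of DNFB and vehicle arrays did not overlap for 6 of 8 genes in NICD mice, as for 37.3% of all probe sets, and for 7 of 8 in control mice, as for 26.9%. Nothing is read from these counts, since some of the genes were named for this comparison.

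C1qtnf9 had 5.11, 5.13, 5.40 and 5.05 in NICD DNFB ears and 8.35, 8.69, 8.62 and 8.29 in NICD vehicle ears. It ranged from 5.12 to 5.88 with a median of 5.32 in control DNFB ears, and from 8.19 to 8.74 with a median of 8.39 in control vehicle ears. No DNFB array came near any vehicle array of its genotype. The difference was -3.31 ± 0.17 (SE) in NICD mice and -2.99 ± 0.14 in control mice. Among falls of the 14886 probe sets tested it ranked 2 in NICD mice and 4 in control mice. Nothing is read from these ranks, since the gene was selected with its difference in NICD mice known. Its other probe set, which is dimmer, fell by 1.00 in NICD mice and by 1.11 in control mice. For DNFB the sizes of the 2 probe sets thus disagree while their direction does not. The dimmer one averaged 3.96 in NICD DNFB and 4.63 in control DNFB ears, against background levels of 3.48 and 3.90. Between genotypes in vehicle ears the 2 probe sets differed in sign as deposited, at 0.07 for the one used and -0.76 for the dimmer one.

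Cd300lg, the mucin-like receptor, had 7.91, 7.94, 8.14 and 7.81 in NICD DNFB ears, against 10.67, 10.57, 10.50 and 10.32 in NICD vehicle ears. It ranged from 7.70 to 8.92 (median 8.12) in control DNFB ears and from 10.55 to 11.02 (median 10.88) in control vehicle ears. The groups lay 2.18 apart in NICD mice and 1.63 apart in control mice at their nearest arrays. The mean difference was -2.57 ± 0.19 in NICD mice, 5.92-fold lower in DNFB ears, and -2.68 ± 0.16 in control mice, 6.42-fold lower.

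Car4 was the member that moved the other way. It had 10.44, 10.65, 10.92 and 10.27 in NICD DNFB ears, against 8.14, 7.76, 8.72 and 8.74 in NICD vehicle ears. It ranged from 9.75 to 10.96 (median 10.32) in control DNFB ears and from 7.60 to 8.27 (median 8.09) in control vehicle ears. No DNFB array overlapped a vehicle array of its genotype, and the difference was 2.23 ± 0.24 in NICD mice and 2.35 ± 0.20 in control mice.

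Cav1, the structural caveolin, fell in both genotypes. It had 8.74, 8.74, 8.65 and 8.54 in NICD DNFB ears, against 9.74, 9.64, 9.62 and 9.82 in NICD vehicle ears. It ranged from 8.27 to 8.69 (median 8.46) in control DNFB ears and from 9.35 to 9.56 (median 9.50) in control vehicle ears. The groups did not overlap, and the difference was -1.03 ± 0.10 in NICD mice (adjusted p = 1.05e-07) and -1.01 ± 0.08 in control mice (adjusted p = 3.80e-09).

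Cav2, its partner, had 7.68, 7.48, 7.61 and 7.52 in NICD DNFB ears, against 8.41, 8.11, 8.33 and 8.24 in NICD vehicle ears. It ranged from 7.29 to 8.29 (median 7.99) in control DNFB ears and from 8.52 to 9.15 (median 8.76) in control vehicle ears. Control DNFB arrays were the most spread of its 4 groups, with an SD of 0.40. The fall was -0.70 ± 0.18 in NICD mice (adjusted p = 0.00427) and -0.90 ± 0.15 in control mice (adjusted p = 3.98e-05).

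Aqp1, the water channel, had 10.05, 9.84, 10.14 and 9.91 in NICD DNFB ears, against 10.91, 11.03, 10.95 and 10.99 in NICD vehicle ears. It ranged from 9.80 to 10.40 (median 10.07) in control DNFB ears and from 11.19 to 11.43 (median 11.33) in control vehicle ears. The groups did not overlap, and Aqp1 fell by 0.98 ± 0.13 in NICD mice (adjusted p = 3.49e-06) and by 1.21 ± 0.10 in control mice (adjusted p = 9.35e-09).

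Plvap, the diaphragm protein, had 9.95, 9.78, 9.93 and 9.77 in NICD DNFB ears, against 9.57, 9.76, 9.99 and 9.64 in NICD vehicle ears. It ranged from 8.94 to 9.63 (median 9.41) in control DNFB ears and from 9.77 to 10.17 (median 9.99) in control vehicle ears. The NICD groups overlapped, and the difference of 0.12 ± 0.14 did not pass (adjusted p = 0.548). In control mice Plvap fell by 0.64 ± 0.11 (adjusted p = 8.12e-05), without overlap.

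Emcn, the sialomucin, had 10.12, 9.82, 9.90 and 9.65 in NICD DNFB ears, against 9.68, 9.59, 9.44 and 9.67 in NICD vehicle ears. It ranged from 9.20 to 9.62 (median 9.40) in control DNFB ears and from 9.55 to 9.95 (median 9.70) in control vehicle ears. Both pairs of groups overlapped. The difference was 0.28 ± 0.13 in NICD mice, which did not pass (adjusted p = 0.0908), and -0.32 ± 0.10 in control mice, which did (adjusted p = 0.0152).

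General endothelial transcripts moved in the same comparison. Of 15 pan-endothelial markers, 2 rose and 8 fell in NICD mice, with a median of -0.32, and none rose and 12 fell in control mice, with a median of -0.71. Tek, the angiopoietin receptor, fell by 1.45 ± 0.19 in NICD mice and by 1.97 ± 0.16 in control mice. With each array centred on the mean of these 15 markers, a scaling chosen after the values were seen, Plvap was higher by 0.52 in NICD mice (adjusted p = 0.0142) and by 0.092 in control mice (adjusted p = 0.542). On that scale Emcn was higher in DNFB ears of both genotypes, by 0.68 (adjusted p = 0.000339) in NICD mice and by 0.41 (adjusted p = 0.00225) in control mice. Cav2 no longer passed in either, at -0.30 (adjusted p = 0.183) in NICD mice and -0.17 (adjusted p = 0.288) in control mice. Cav1 kept a fall of 0.63 in NICD mice and 0.28 in control mice, and Aqp1 of 0.58 and, in control mice, 0.48.

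**Figure D2:**
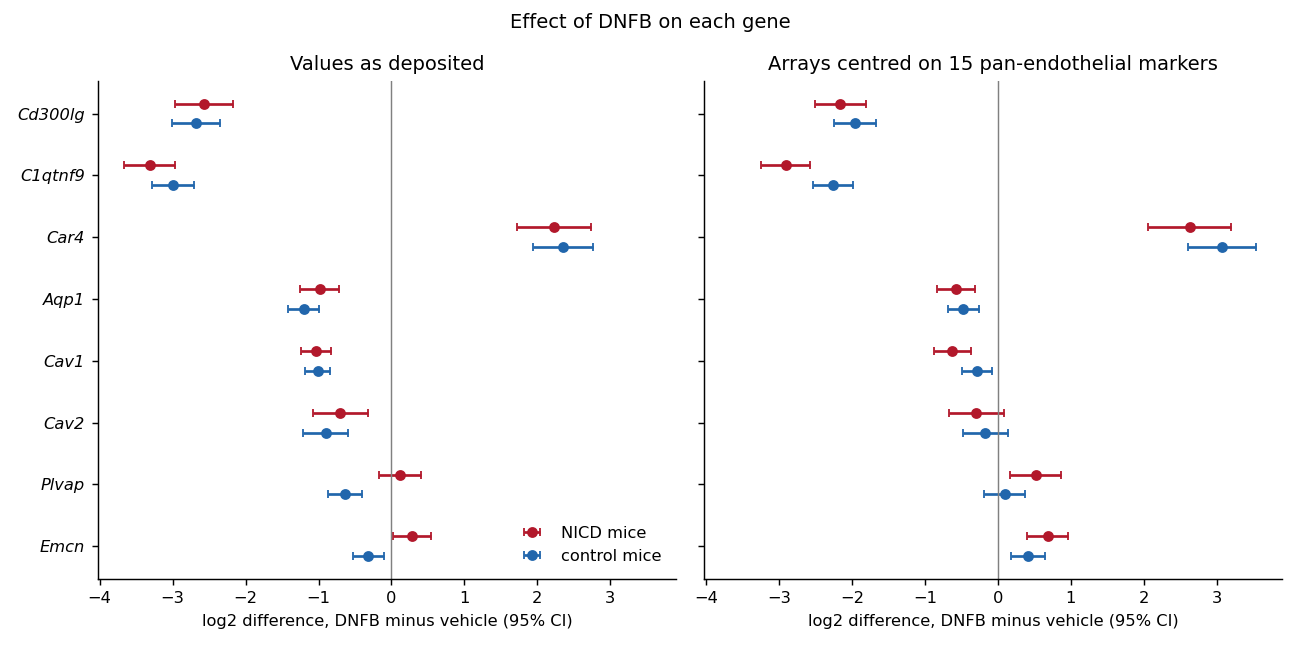
Difference between DNFB and vehicle ears for each gene on the log2 scale, in NICD mice (red) and control mice (blue), with 95% confidence intervals from the fit. The left panel uses the deposited values and the right panel arrays centred on 15 pan-endothelial markers, where Plvap and Emcn lie at or above 0 in both genotypes. The intervals of Cd300lg and Car4, and of C1qtnf9 in NICD mice, only describe differences known when the genes were selected.

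Transcripts of other cells moved with DNFB as well. Of 12 neutrophil markers 7 were tested, of which 6 rose in NICD mice and 7 in control mice. Of 10 macrophage markers tested, 5 rose and none fell in NICD mice, and 6 rose and 1 fell in control mice. Of 5 platelet markers 3 rose in NICD mice and 5 in control mice, and none fell. Only 3 of the 12 neutrophil markers in NICD vehicle ears and 1 in control vehicle ears lay above background. The log2 of the summed neutrophil signal ranged from 9.01 to 9.30 in NICD DNFB ears and from 6.78 to 7.02 in NICD vehicle ears, against 8.78 to 10.90 in control DNFB and 6.83 to 7.07 in control vehicle ears. Pericyte markers fell, 8 of 11 in NICD mice and 10 of 11 in control mice. The log2 of the summed keratinocyte signal was 12.02 to 12.61 in NICD DNFB and 11.67 to 12.39 in NICD vehicle ears. In control mice it was 11.97 to 13.49 in DNFB and 11.48 to 12.48 in vehicle ears, so the groups overlapped in both genotypes. The part of these cells in the results was not tested.

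Whether the DNFB effect differed between genotypes was tested as the difference of the 2 effects, which 0.0134% of all probe sets passed. None of the 8 genes did. The largest was Plvap, at 0.76 ± 0.18 (95% interval 0.39 to 1.12, adjusted p = 0.109). It passed in 1 of 33 alternatives, when limma used a robust variance trend (adjusted p = 0.0395). Over the alternatives it ranged from 0.43 to 0.84, with an adjusted p of up to 0.249. Emcn followed at 0.60 ± 0.16 (0.26 to 0.94, adjusted p = 0.18). It passed in no alternative, with a range of 0.27 to 0.67. For Cav1 the difference was -0.0195 (-0.29 to 0.25) and for Cd300lg 0.12 (-0.40 to 0.63), and the adjusted p was 0.635 or more for the genes other than Plvap and Emcn.

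Between genotypes, the values depended on how arrays were scaled. As deposited, the median difference of all probe sets was -0.27 in DNFB ears and -0.28 in vehicle ears, and centring moved it to 0.0993 and, in vehicle ears, 0.045. In DNFB ears 2 of the 8 genes were higher in NICD than in control mice and none lower, while 40.5% of all probe sets passed, 5.45% as higher. Groups did not overlap for 2 of 8 genes, as for 25% of all probe sets. Plvap was higher by 0.52 ± 0.12 (adjusted p = 0.0031) and Emcn by 0.47 ± 0.12 (adjusted p = 0.00374), without overlap between the groups, and after centring by 0.89 and 0.84. On the pan-endothelial scale neither passed, at 0.27 (adjusted p = 0.135) for Plvap and 0.21 (adjusted p = 0.138) for Emcn. On that scale 4 other genes were lower in NICD DNFB ears: Cd300lg by -0.44 (adjusted p = 0.0185), C1qtnf9 by -0.50 (adjusted p = 0.00705), Cav2 by -0.58 (adjusted p = 0.00543) and Aqp1 by -0.38 (adjusted p = 0.00792). Of the pan-endothelial markers, 5 of 15 were themselves higher in NICD DNFB ears as deposited, among them Sox18 by 0.86 ± 0.18 and Kdr, a VEGF receptor, by 0.60 ± 0.11, and 13 of 15 after centring. In vehicle ears 2 of these 15 markers were lower in NICD mice as deposited, and after centring 5 were higher and none lower. After centring, 20.7% of all probe sets were higher in DNFB ears and 11.9% in vehicle ears.

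Some markers of other cells also passed between the genotypes. Of 8 lymphatic endothelial markers, 4 were higher in NICD mice in DNFB ears and 5 in vehicle ears, with medians of 0.71 and, in vehicle ears, 0.95, and after centring 6 and, in vehicle ears, 7 were higher. Of all probe sets, 5.45% were higher in DNFB ears and 2.88% in vehicle ears as deposited, and 20.7% and 11.9% after centring. In NICD DNFB ears 4 of 9 fibroblast, 3 of 5 platelet and 4 of 5 chondrocyte markers were lower as deposited, against 1, 1 and 2 after centring. Of 11 pericyte markers 3 were lower and 1 higher there as deposited, and 2 lower and 2 higher after centring. Of all probe sets, 35.1% were lower in NICD DNFB ears as deposited and 8.12% after centring. Nothing is therefore read from the fibroblast and pericyte counts. The part of these cells in the differences between genotypes was not tested.

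In vehicle ears 2 genes were lower in NICD mice, while 35.9% of all probe sets passed, 33% as lower. Groups did not overlap for 3 of 8 genes, as for 24.1% of all probe sets. The 2 lower genes were Cav2, by -0.54 ± 0.17 (adjusted p = 0.0171), and Aqp1, by -0.35 ± 0.12 (adjusted p = 0.0238), both without overlap. Both differences were lost after centring, at -0.21 (adjusted p = 0.403) for Cav2 and -0.0225 (adjusted p = 0.92) for Aqp1. Cav2 also missed the threshold without NICD vehicle replicate 2 (adjusted p = 0.0555), and Aqp1 without NICD vehicle replicate 1 (adjusted p = 0.0587) or replicate 3 (adjusted p = 0.0526). Cav1 went the other way, without overlap in vehicle ears. As deposited it was higher in NICD mice, by 0.20 in DNFB (adjusted p = 0.0795) and 0.22 in vehicle ears (adjusted p = 0.0616). After centring both differences passed, at 0.57 in DNFB ears (adjusted p = 0.000198) and 0.55 in vehicle ears (adjusted p = 0.000574). On the pan-endothelial scale the Cav1 difference in DNFB ears was -0.0478. Car4 in vehicle ears passed when arrays were centred on all probe sets (0.65, adjusted p = 0.0453) and missed when they were centred on the kept ones (0.63, adjusted p = 0.051). After centring, 28.8% of all probe sets passed in DNFB ears and 18.4% in vehicle ears.

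**Figure D3:**
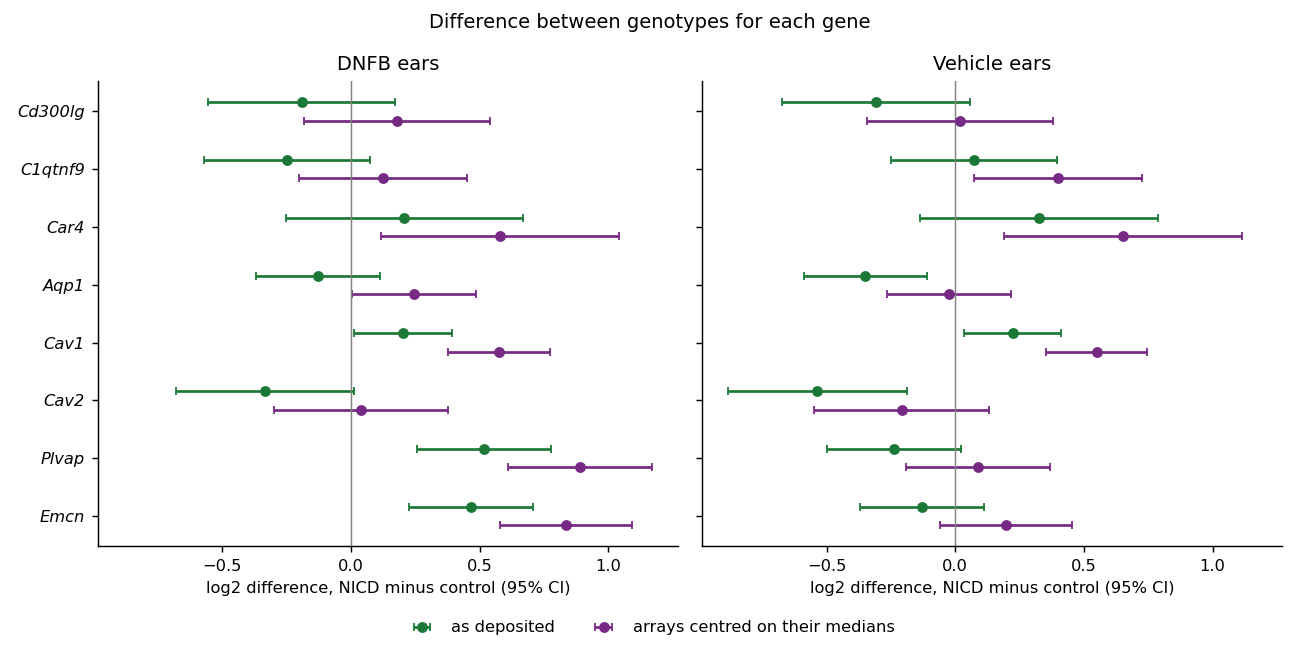
Difference between NICD and control mice for each gene on the log2 scale with 95% confidence intervals, in DNFB ears (left) and vehicle ears (right). Green points use the deposited values and purple points arrays centred on the median of all their probe sets, which lie further to the right for every gene.

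The coat of the caveola followed the caveolins only in part. Of 10 coat and neck genes tested besides Cav1 and Cav2, none rose and 5 fell in NICD DNFB ears, and 1 rose and 5 fell in control DNFB ears, with medians of -0.26 and, in control mice, -0.33. Cavin2, which shapes the caveolar membrane, fell by 1.95 ± 0.15 in NICD mice and by 2.23 ± 0.12 in control mice. Cavin1, the cavin without which caveolae do not form, fell by 0.49 ± 0.11 in NICD mice and by 0.95 ± 0.09 in control mice. Pacsin3, a membrane-bending protein, fell by 0.64 ± 0.15 in NICD mice and by 0.83 ± 0.12 in control mice. These coat values are as deposited only. Centring on the pan-endothelial markers shifts all genes alike within a comparison. It moved Cav1 from -1.03 to -0.63 in NICD mice and from -1.01 to -0.28 in control mice. Cavin1 and Pacsin3 fell by less than Cav1 in both genotypes, so on that scale their falls would be smaller still. Cavin3 showed no called DNFB difference, and it was higher in NICD than in control mice in DNFB ears by 1.04 ± 0.15 as deposited and 1.41 after centring. Ehd2, the ATPase at the caveolar neck, was higher there by 0.72 ± 0.11 as deposited and 1.09 after centring. In vehicle ears as deposited, Cavin3 was higher in NICD mice by 0.64 ± 0.15 and Ehd2 by 0.30 ± 0.11. Cavin1 was lower there, at -0.61 ± 0.10. Of the 10 genes, 3 were higher and 1 lower in NICD DNFB ears as deposited, and 2 higher and 1 lower in vehicle ears. After centring 7 and, in vehicle ears, 4 were higher and none lower. Of all probe sets, 5.45% were higher in DNFB ears and 2.88% in vehicle ears as deposited, and 20.7% and 11.9% after centring. Dnm3, one of 5 flotillins and dynamins, fell by 1.43 ± 0.20 in NICD mice and by 2.00 ± 0.16 in control mice.

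Among 8 other aquaporins tested, 1 rose and 2 fell in each genotype. Aqp7, which passes glycerol, fell by 2.71 ± 0.24 in NICD mice and by 2.97 ± 0.20 in control mice, and Aqp11 by 1.70 ± 0.20 and, in control mice, 1.63 ± 0.16. Aqp3, which is abundant in keratinocytes, rose by 1.84 ± 0.32 in NICD mice and by 2.37 ± 0.26 in control mice. Of 10 keratinocyte markers, 3 rose and 1 fell in NICD mice, and 4 rose and 2 fell in control mice. Their medians were -0.033 and, in control mice, 0.44. The largest rises among them were those of Krt16, by 5.10 ± 0.52 in NICD mice and 5.93 ± 0.42 in control mice, and Krt6a, by 4.82 ± 0.59 and, in control mice, 4.82 ± 0.48. Of 10 other carbonic anhydrases, 1 rose and 3 fell in NICD mice, and 2 rose and 4 fell in control mice. The cytosolic Car13 rose with Car4, by 2.21 ± 0.23 in NICD mice and by 1.62 ± 0.19 in control mice, and the mitochondrial Car5b fell by 0.68 ± 0.15 and, in control mice, 1.43 ± 0.12. Of 7 bicarbonate and proton transporters, 3 rose and 2 fell in NICD mice, and 4 rose and 2 fell in control mice. Slc16a1, a lactate and proton carrier, rose by 1.83 ± 0.22 in NICD mice and by 1.80 ± 0.18 in control mice.

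The relatives of Cd300lg were dim, and a fall in them could hardly be measured. Of 5 other CD300 genes tested, which read between 3.20 and 4.43 on average, Cd300ld alone lay above background in all 4 groups. One CD300 gene, Cd300lf, passed as higher and none as lower in each genotype. Cd300lf is a receptor of myeloid cells, and its difference was 0.69 ± 0.24 in NICD mice and 0.76 ± 0.19 in control mice, from vehicle levels that were not above background. Of 9 genes of the C1q/TNF family and its receptors, none rose and 5 fell in each genotype. Adipor2, an adiponectin receptor, fell by 0.80 ± 0.12 in NICD mice and by 1.08 ± 0.10 in control mice. Of 15 sialomucin and glycocalyx genes, 6 rose and 2 fell in NICD mice, and 6 rose and 6 fell in control mice, with the mucin Muc1 rising by 1.27 ± 0.26 in NICD mice and by 1.94 ± 0.21 in control mice. Of 26 other capillary genes, 2 rose and 20 fell in NICD mice, and 2 rose and 23 fell in control mice, with medians of -0.78 and, in control mice, -1.03. Timp4, an inhibitor of matrix proteases, fell by 2.98 ± 0.21 in NICD mice and by 3.06 ± 0.17 in control mice. Apln, the ligand of the apelin receptor, rose by 2.12 ± 0.31 in NICD mice and by 3.33 ± 0.26 in control mice.

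**Figure D4:**
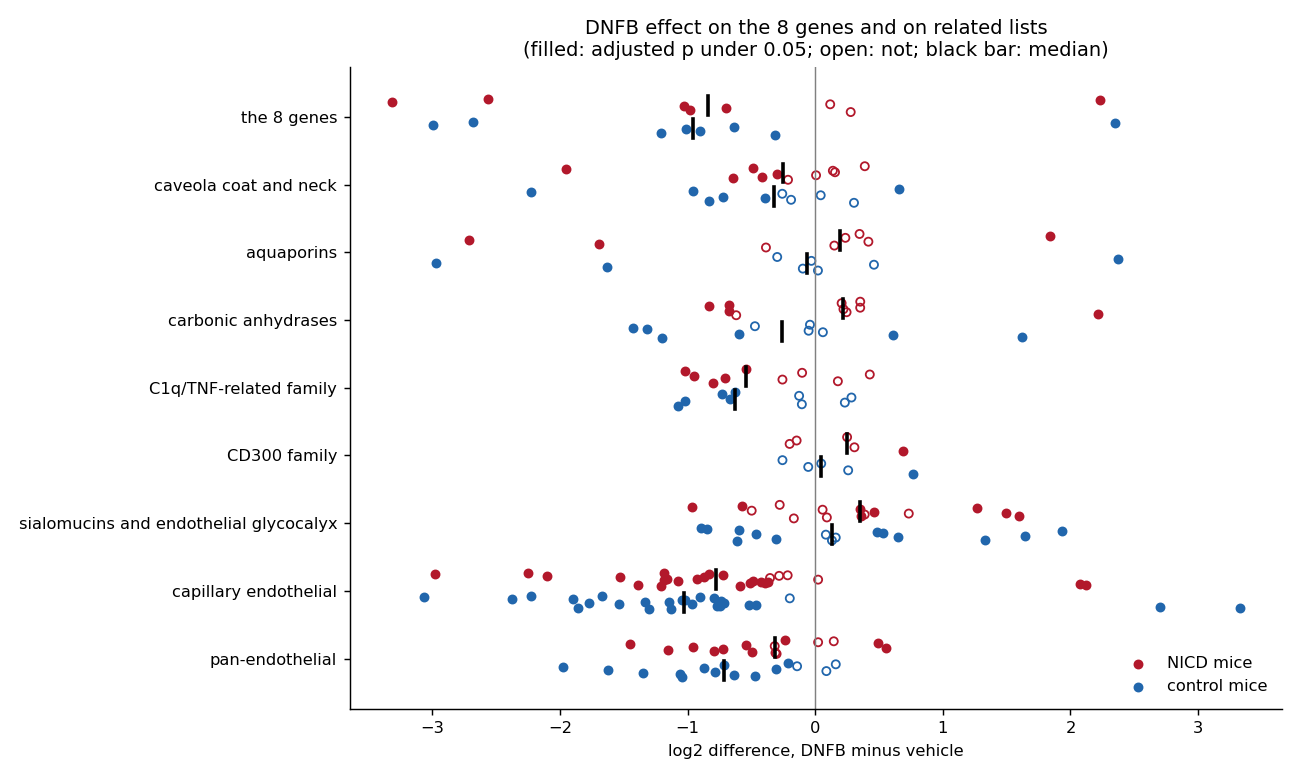
Difference between DNFB and vehicle ears on the log2 scale for the 8 genes and for 8 related lists, with NICD mice (red) above control mice (blue) in each row; filled points passed at an adjusted p under 0.05, open points did not, and black bars are medians. Most capillary genes lie left of 0, whereas aquaporins, carbonic anhydrases and sialomucins lie on both sides. The fill of Cd300lg and Car4, and of C1qtnf9 in NICD mice, is not a test, since the genes were selected with those differences known.

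Genes with the most alike pattern were found by the root mean square (RMS) difference over the 20 arrays, after each probe set was centred on its own mean and each array on its median. For C1qtnf9 they were Npy1r (0.316) and Timp4 (0.353), for Cd300lg Lepr (0.254) and Itih5 (0.261), and for Car4 Sdcbp2 (0.376) and Batf2 (0.388). Cav1 was most like Ptprb (0.136) and Tns1 (0.152), and Aqp1 most like Wdfy3 (0.12) and Garre1 (0.142). Cav2 was most like Btbd2 (0.186) and the coat gene Cavin1 (0.218). Plvap was most like Enpp4 (0.157) and Spns2 (0.169), and Emcn most like Camk2d (0.145) and Trak2 (0.147). Among the 8 genes themselves the closest pairs were Plvap with Emcn (0.255) and Cav1 with Aqp1 (0.30), and the adjacent genes Cav1 and Cav2 stood at 0.391. The measure is not scaled, so genes that move little lie close to each other. About its own mean, Plvap had an RMS of only 0.391 and Emcn of 0.338, while Cav1 had 0.58 and Aqp1 0.574. Cd300lg with C1qtnf9 stood at 0.386, beside larger RMS values of their own, 1.33 and 1.57. The arrays share 4 groups, so these values describe group differences as much as variation within groups.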

How the data were processed

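Endothelial RNA (1 ng per sample, WT Pico amplification per the labels' protocols) was measured on 20 Affymetrix arrays. The authors deposited log2 values made with RMA in Affymetrix Expression Console, per the submitters' processing notes; whether NICD and control arrays were normalized together is not given in the sources used here. The table held 41345 probe sets, of which 23521 had 1 gene symbol, 1814 several and 16010 none. Kept were 14886 single-symbol probe sets above their own array's median on at least 4 arrays.

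All 20 arrays were fitted in 1 model with 1 mean per group using limma 3.58.1 in R 4.3.3 (eBayes, Benjamini-Hochberg over all probe sets kept, threshold 0.05). ± is the SE of the fit. Tables and figures used Python 3.11.15 and matplotlib 3.10.9. The number of arrays limits the precision. On simulated data the model recovered 67.2% of 1-unit log2 changes for DNFB in NICD mice and 80.6% in control mice. For the difference of effects it recovered 49.3% of 1-unit and 7.46% of 0.5-unit changes. Only 67 of 14886 probe sets were changed at each of these sizes, far fewer than passed for DNFB in the data. The shares are therefore a rough guide only.

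The genes and lists were chosen with earlier results of these data known. Named from each list were up to 3 genes (2 for marker lists) with the largest called difference in a contrast, plus the 2 most alike genes per member; Cavin3 and Ehd2 come from the NICD against control contrast, and not all genes the rule allows are printed. Alternatives were filters, scalings, variance models, blocks and left-out arrays. The planned scaling alternative, each array centred on its median, was run over all probe sets. A version over the kept probe sets was added after those values had been seen; among the 8 genes and Notch1 it changed 2 calls between genotypes (Car4 in vehicle ears, Notch1 in DNFB ears), and both versions are given. A comparison of caveolin proteins was not made, and protein sequences were not used here.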

Additional observations from a re-analysis of the deposited data

How the results depend on the processing

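The DNFB differences of Cav1 and Aqp1 kept their direction and side of the threshold in both genotypes under every alternative run. Leaving out 1 array at a time left 6 to 7 genes called for DNFB in NICD mice, 8 in control mice, 2 to 3 between genotypes in DNFB ears, 1 to 3 in vehicle ears and none for the difference of effects, and 5054 to 5792, 6674 to 7035, 4852 to 6115, 4362 to 5525 and 0 to 29 probe sets. A further limit of 2-fold left 4 genes and 1619 probe sets for DNFB in NICD mice, 5 and 1693 in control mice, 0 and 801 between genotypes in DNFB ears and 0 and 503 in vehicle ears. Gene counts for DNFB, here and below, include Cd300lg, Car4 and C1qtnf9. The genes were selected with DNFB differences of these 3 known, so nothing is read from those counts.

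Between genotypes in vehicle ears, 2741 probe sets passed after centring on all probe sets, 2778 (1 gene) on kept ones, 3098 (0 genes) on pan-endothelial markers, 2412 (1) with quantile normalization and 2326 (1) with cyclic loess. In DNFB ears, 9066 (4 genes) passed on pan-endothelial markers, 3553 with quantile normalization and 3539 with cyclic loess; for DNFB in control mice 11661 passed on those markers. For the difference of effects, 27 (1 gene) passed with trended variances, 25 on pan-endothelial markers, 17 with array weights, 20 with the replicate block as random, 1 without the filter, with quantile normalization or cyclic loess, and 0 on kept medians or with unnamed probe sets included. With the replicate block as fixed, 6, 8, 3, 2 and 0 genes were called, beside 5702, 7139, 5742, 4777 and 3 of all 14886 probe sets. The gene added between genotypes in DNFB ears was C1qtnf9, at -0.36 (adjusted p = 0.0374). Between genotypes this block joined NICD and control arrays of the same number, although the labels name no shared animal or litter. Same-numbered DNFB and vehicle arrays of a genotype deviated together in 10 of 10 pairs, at correlations of 0.0418 to 0.269, over 0.1 in 5, and 13 of 20 arrays correlated best with their own number, which is a hint from the data and not from the design, so the numbers were not taken as pairs.

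Signs that turned, none of them a call as deposited except the falls of Plvap (0.0919) and Emcn (0.41) in control mice on pan-endothelial markers, were as follows. Plvap for DNFB in NICD mice was -0.00848 with quantile normalization and -0.0202 with cyclic loess. Between genotypes in DNFB ears, centring on all and on kept probe sets gave 0.18 and 0.106 for Cd300lg, 0.123 and 0.0484 for C1qtnf9 (0.118 with quantile normalization), 0.243 and 0.169 for Aqp1, and 0.0389 on all for Cav2; pan-endothelial markers gave -0.0432 for Car4 and -0.0478 for Cav1. In vehicle ears, the same centrings gave 0.0891 and 0.0682 for Plvap, 0.197 and 0.176 for Emcn, and 0.019 on all for Cd300lg; C1qtnf9 was -0.0344 with the fixed replicate block and -0.35 as the mean of its probe sets. For the difference of effects, pan-endothelial markers gave -0.21 for Cd300lg, -0.12 for Cav2 and -0.10 for Aqp1; Cav1 was 0.0257 centred on all probe sets and 0.011 with quantile normalization; and leaving out 1 array gave -0.312 to 0.0147 for Car4 and -0.0600 to 0.0249 for Cav1. The cause of these shifts was not tested.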
